A study of Mus musculus with 125 samples.

Results

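The E16.5 brain endothelial cells are 3542 of the 3997 cell barcodes in the single-cell RNA library of embryonic day 16.5 mouse brain (88.6%), and 3542 of 42340 barcodes in the 5 single-cell libraries of the series. A barcode was taken when it had at least 200 genes, at most 10% of its unique molecular identifiers (UMIs) in mt- genes, at least 1 UMI in 3 or more of Cdh5, Pecam1, Egfl7, Esam, Tie1 and Kdr, and no UMI of Tyrobp, Epcam or Pdgfrb. The cells were thus chosen by these measured values, and the 6 markers and the 3 excluded genes are a description here and not a result. The study profiled mouse endothelium over development by open chromatin, bulk RNA and single-cell RNA. The single-cell libraries hold cells taken with anti-CD31 magnetic beads, with 1 library for each of E9.5, E12.5, E16.5, postnatal day 8 (P8) and the adult of 2 months. E16.5 and the earlier ages were dissected brain digested with collagenase, whereas P8 and adult were cortex dissociated with a neural tissue kit. Genotype, strain, sex and the number of embryos or animals behind each library are not given in the sources used here. With 1 library per age no replicate error exists: intervals are exact 95% Poisson (sums of UMIs) or binomial (shares of cells) intervals that cover counting error only, and no comparison of ages carries a test.

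Brain endothelial cells line the vessels of the central nervous system and form the blood-brain barrier together with pericytes and astrocytes. Wnt ligands from neural cells act through Fzd4, Adgra2 and Reck on these cells, and they come to express tight junction proteins, nutrient carriers and efflux pumps while they lose the diaphragm protein Plvap and limit vesicular transport. In the late mouse embryo the vessels are still growing, by tip cells that lead new sprouts and by dividing cells behind them.

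Cells had 3678 to 56862 UMIs (median 8850.5) and a median of 2984 genes, and the sum was 39067861 UMIs. All 6 markers were present in 65.3% of the cells. Just inside the threshold lay 45 barcodes with exactly 3 markers and just outside lay 27 with 2 and no excluded gene; 244 barcodes with 3 or more markers were left out for an excluded gene, of which 145 had a UMI of Pdgfrb and 107 of Tyrobp. Endothelial genes that the rule did not use were also present: all 22 had UMIs, among them Cd34 in 97.8% of cells, the VEGF receptor Flt1 in 95.4% and the TGF-beta co-receptor Eng in 96.9%. In the 51 barcodes of the same library with none of the 6 markers (median 5186 UMIs, against 8850.5) the same genes had a UMI in 15.7%, 7.84% and 17.6%.

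Features of the libraries touch what follows. Of the cells, 118 of 3542 (3.33%) fell in clusters led by genes of other cell types, described with the clusters; results are given with them, and without them where that matters. Haemoglobin RNA was spread over cells of both kinds: Hbb-bs, a haemoglobin gene of red cells, had a UMI in 72.2% of the endothelial cells and in 68.6% of the zero-marker barcodes, and haemoglobin genes made up 0.992% of the UMIs, or 0.165% in the other 3424 cells. The E16.5 library held Xist, the transcript of the inactive X, at 1149.6 CPM (the usual scaled unit of a gene's UMIs relative to all UMIs of the same cells) in 98.6% of cells and no UMI of the Y-linked Ddx3y, whereas P8 had Xist at 0.0974 and Ddx3y at 104 CPM, and E9.5 and E12.5 held both. Sex, brain region, dissociation and age therefore cannot be told apart between E16.5 and P8, and the make-up by sex differs from E12.5 as well (Xist in 49.9% of cells, Ddx3y at 27.5 CPM). In addition, 50 barcodes of E16.5 also occur in the E12.5 library (27 of them endothelial in both), 1 occurs in E9.5 and none in P8 or adult. The name of the deposited E16.5 file carries another embryonic day than the sample's label; the label is used throughout, and every comparison of ages rests on it. The matrix carries no gene table of its own, and its 27998 rows were read in the order of the table shared by the other libraries. The lists of markers of other cell types summed to little in most cases, and lower than in the zero-marker barcodes in all but 1. The zero-marker barcodes were not filtered for the excluded genes, and 43.1% of the 51 held a UMI of Tyrobp, Epcam or Pdgfrb. The rule for choosing cells therefore sets part of this contrast in advance, and it is a description only. The 9 microglial and macrophage genes other than Tyrobp summed to 9.29 CPM (6301 in the zero-marker barcodes), the 10 mural genes other than Pdgfrb to 29.7 (533), and the 3 lymphatic genes to 1.48 (494). Fibroblast genes summed to 8.04 (494), leukocyte and platelet genes to 9.62 (3314), oligodendrocyte genes to 3.10 (78.1; Sox10 at 0), neural progenitor genes to 52.3 (2611) and neuronal genes to 83.1 (1403), of which Map1b alone gave 73.6. Erythroid genes summed to 9934 (143693) and epithelial and choroid plexus genes to 206 (37723; Krt8 at 0), of which Ttr gave 199.6. The exception was the mast cell list at 19.1 (14.2), all of it Kit, with the other 4 genes at 0. Their part in the results below was not tested.

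The most abundant transcripts were of several kinds. Levels (CPM) count the 3' ends of captured molecules, so they are not divided by gene length. Tmsb4x, which binds actin, led at 15952 CPM (15912 to 15991), followed by Bsg (basigin, the partner of monocarboxylate carriers) at 12054, the ferritin heavy chain Fth1 at 9779 and the nuclear RNA Malat1 at 9493. Cldn5, the main claudin of endothelial tight junctions, stood sixth at 7818 CPM (7791 to 7846) and had a UMI in 99.9% of cells, against 62.7% of the zero-marker barcodes, where its level was 227 CPM. The matrix protein Sparc (3800.4 CPM), Igfbp7 (3742) and Itm2a (3503) were among the top 20 as well, as were the haemoglobin genes Hbb-bs (4943) and Hba-a1 (4071). Some of these are not marks of endothelium: Malat1 was 12990.0 and Tmsb4x 10979.5 CPM in the zero-marker barcodes. At least 1 UMI was counted for 17282 genes, and 1706 genes were at 100 CPM or more.

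Nutrient carriers were mostly above their E12.5 level. Of 5833 genes at a mean of 20 CPM or more over both libraries, 409 were higher at E16.5 by 2-fold or more (7.01%) and 293 were lower (5.02%). Among the nutrient transporters 10 of the 11 tested were higher and none lower, with a median log2 ratio of 1.5 against -0.02 over all genes tested. Slc7a5, the light chain of the large neutral amino acid carrier, was at 7.39, 311, 1289, 230 and 777 CPM from E9.5 through E12.5, E16.5 and P8 to the adult. It was therefore 4.14-fold (4.07 to 4.21) above E12.5 and 5.60-fold above P8. Its heavy chain Slc3a2 was at 58.2, 932, 2176, 1002 and 760.1 CPM at the same ages. Both chains had their highest level of the 5 libraries at E16.5. The glutamine carrier Slc38a5 was at 872 CPM, 3.16-fold above E12.5 and 1.11-fold above P8, and the cationic amino acid carrier Slc7a1 was 4.45-fold above E12.5. The glucose carrier Slc2a1 (GLUT1) was the tested carrier that did not pass: 1222, 1239, 863 and 5525 CPM from E12.5 to the adult.

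Against P8 few carriers passed 2-fold. Of 5993 genes tested, 430 were higher at E16.5 (7.18%) and 585 lower (9.76%). Of 14 nutrient carriers 2 were higher (Slc7a5 and Slc3a2) and 3 lower, which with 14 genes lies near those shares. Slc16a1, the monocarboxylate carrier MCT1 that brings in lactate and ketone bodies, was at 16.7, 6.50, 88.1, 1745 and 384 CPM in the same order of ages. It stood 13.6-fold above E12.5 and 19.8-fold (19.1 to 20.5) below P8, and had a UMI in 41.4% of E16.5 cells against 94.7% at P8. The others below P8 were the glutamate carrier Slc1a1 (15.0 against 72.3 CPM) and the vitamin carrier Slc5a6 (18.5 against 37.2). Slc5a6 lay at the threshold, and without clusters 8 to 10 it was not called, leaving 2 of 14 lower.

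**Figure D1:**
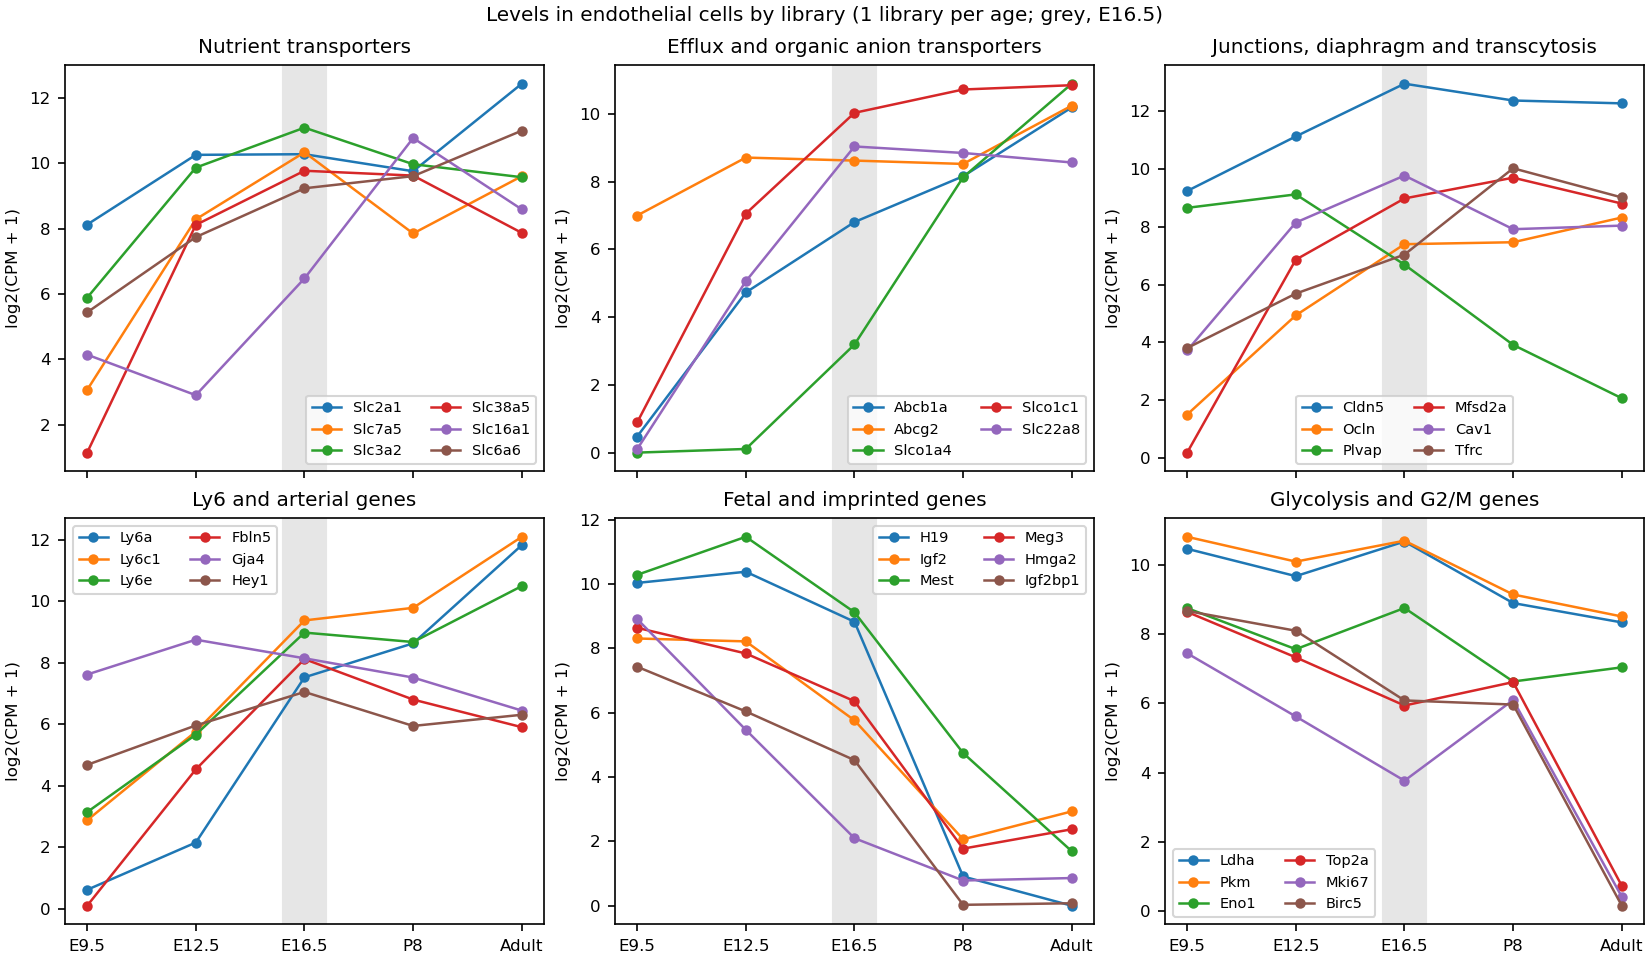
Level of named genes in the endothelial cells of each single-cell library, as log2(CPM + 1), with 1 point per library and ages on the x axis; lines join the points and the grey band marks E16.5. Slc7a5 and Cldn5 peak at E16.5 (1289 and 7818 CPM), Plvap declines from 552 CPM at E12.5 to 102, and Slco1a4 stands at 8.14 before 279 at P8.

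Efflux pumps and organic anion carriers were unequal in their timing. Of 6 tested, 4 were higher than at E12.5 and none lower, beside 7.01% and 5.02% of all genes. Slc22a8, an organic anion carrier, had one of the 10 largest ratios, 16.3-fold (32.3 to 525 CPM), and its level was 459.5 CPM at P8. Slco1c1, which takes up thyroid hormone, was at 132, 1046 and 1687 CPM (E12.5, E16.5, P8). The multidrug pump Abcb1a (P-glycoprotein) was 4.34-fold above E12.5 but 2.57-fold below P8, with 25.5, 111, 285 and 1169 CPM from E12.5 to the adult. Another efflux pump, Abcg2, was 418, 393 and 367 CPM (E12.5, E16.5, P8). Slco1a4 was still near the bottom: 8.14 CPM and a UMI in 5.48% of cells at E16.5 (1.96% of zero-marker barcodes), 279 CPM at P8 and 1899.6 in the adult. Against P8, 3 of 8 were lower (Abcb1a, Abcc4 and Slco1a4) and none higher, beside 9.76% and 7.18% of all genes.

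Genes of vesicular transport moved in both directions. Plvap, which builds the diaphragms of fenestrae and caveolae, was at 399.8, 552, 102, 14.1 and 3.21 CPM from E9.5 to the adult, 5.43-fold (5.26 to 5.62) below E12.5 and 7.19-fold above P8. The E16.5 level rested largely on the 105 cells of cluster 7, described below, at 2500.2 CPM; the other cells were at 32.2. Mfsd2a, the lipid carrier that restrains caveolar transport, was at 0.146, 115, 501, 824 and 443 CPM, with a UMI in 79.2% of E16.5 cells (11.8% of zero-marker barcodes). The caveolar coat gene Cav1 was highest at E16.5, at 867 CPM against 281 at E12.5 and 239.5 at P8. The transferrin receptor Tfrc was 129.9 CPM, 2.57-fold above E12.5 and 7.95-fold below P8. In all, 6 of 8 tested genes of the list were higher than at E12.5 and 1 lower, beside 7.01% and 5.02% of all genes. Of 8 tested against P8, 3 were higher and 1 lower, beside 7.18% and 9.76% of all genes. The 1 lower gene in each comparison lies near those shares. Both comparisons use the same E16.5 sums.

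Of 12 junction genes tested, 5 were higher than at E12.5 and 1 lower, beside 7.01% and 5.02% of all genes. Of 12 tested against P8, 1 was higher and 2 lower, beside 16.9% of all genes past 2-fold against P8. Higher than at E12.5 were Cldn5 (2213 to 7818 CPM), Ocln or occludin (29.6 to 167), Marveld2 or tricellulin, the tricellular junction gene Lsr and the adhesion molecule Jam2. The cadherin Cdh2 was lower (163 to 80.2 CPM). Against P8 only F11r was higher (122 against 27.4 CPM), and the scaffold genes Tjp1 (186 against 404) and Cgnl1 were lower. Cldn5 was 1.5-fold above P8 and Ocln 1.04-fold below.

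The promoters of 3 barrier genes are shown because their levels carry the comparisons above and open chromatin was measured there. Each is the 250 bases before the RefSeq gene start on GRCm38.p6, 5' to 3' on the gene's strand; capitals mark CCAAT boxes (CCAAT or its complement ATTGG) and GC boxes (GGGCGG or CCGCCC). Plvap has no promoter sequence here.
Cldn5 (chr16:18776597-18776846, plus strand): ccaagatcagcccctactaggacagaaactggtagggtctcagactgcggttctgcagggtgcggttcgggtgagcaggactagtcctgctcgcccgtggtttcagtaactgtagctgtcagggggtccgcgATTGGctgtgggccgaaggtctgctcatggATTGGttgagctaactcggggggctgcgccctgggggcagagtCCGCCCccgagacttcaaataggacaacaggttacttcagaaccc
Slc2a1 (chr4:119108495-119108744, plus strand): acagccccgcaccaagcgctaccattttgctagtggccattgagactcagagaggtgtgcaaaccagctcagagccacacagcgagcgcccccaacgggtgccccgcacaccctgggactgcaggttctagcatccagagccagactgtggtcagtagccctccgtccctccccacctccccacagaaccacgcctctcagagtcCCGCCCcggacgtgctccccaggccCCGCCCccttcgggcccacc
Mfsd2a (chr4:122961189-122961438, minus strand): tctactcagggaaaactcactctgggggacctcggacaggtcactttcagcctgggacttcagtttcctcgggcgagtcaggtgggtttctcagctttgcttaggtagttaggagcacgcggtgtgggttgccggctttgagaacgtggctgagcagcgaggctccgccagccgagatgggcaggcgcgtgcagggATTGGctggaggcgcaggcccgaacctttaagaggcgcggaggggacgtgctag
Cldn5 holds 2 CCAAT boxes and 1 GC box, Slc2a1 2 GC boxes and Mfsd2a 1 CCAAT box. Over 27025 RefSeq promoters of this length, 34.5% hold a CCAAT box and 32.9% a GC box on either strand, so these matches are common. Open chromatin was read in a promoter window that adds the 50 bases after the start to the 250 shown. Each such window overlapped a deposited ATAC-seq peak in all 3 brain endothelial libraries of E12 and all 3 of P6, the ages on both sides of E16.5. The study's Input libraries of brain, which are not endothelial-specific, had a peak there too, in 1 of 1 library at E12 and in 3 of 3 at P6 for Slc2a1 and Mfsd2a, or 2 of 3 for Cldn5.

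Open promoters followed the E16.5 level in endothelial and Input libraries alike. Of 18700 genes with a window, those without a UMI at E16.5 (6076 genes) had a promoter peak in 15.4% ± 0.290 (SD, n = 3) at E12 and 8.82% ± 4.54 (n = 3) at P6. Among the 1349 genes at 100 CPM or more the shares were 98.4% ± 0.0741 and 96.4% ± 2.57. Input libraries gave 96.7% at E12 (1 library) and 95.1% ± 1.63 (n = 3) at P6 for those genes. A P6 endothelial library had 27160 peaks, against 79903 and 87133 in the other two, and the P6 mean without it was 97.9%. Slc38a5 was the exception among 9 nutrient carriers with a window. No endothelial or Input library of E12 or P6 had a peak in its window, although its level at E16.5 was 872 CPM. Genes of other lists, among them Jund, Nr2f2 and Nkd1, also had no peak in any of these libraries. Jund had a UMI in 61.0% of thinned E16.5 cells. Whether such windows hold the gene start in use was not tested, so they do not show a closed promoter.

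None of 5 tested Wnt receptors and co-receptors passed 2-fold in either comparison, which with 5 genes lies near the share of all genes (16.9% against P8); Fzd4 was 34.1, 42.6 and 68.3 CPM (E12.5, E16.5, P8), and Tspan12 47.1, 89.7 and 72.8. Of 5 tested targets and feedback genes, 2 were higher than at E12.5 and none lower (median log2 ratio 0.77), beside 7.01% and 5.02% of all genes. Of 9 tested against P8, none was higher and 1 lower (Apcdd1), near the 7.18% and 9.76% of all genes. Notum, the secreted Wnt inhibitor, was 31.9-fold (27.7 to 37.0) above E12.5 (3.08 to 98.2 CPM) and Tnfrsf19 3.37-fold. The transcription factors Lef1 (131 CPM) and Tcf7 (66.6) lay 1.55- and 1.69-fold above E12.5 and 1.47- and 1.43-fold below P8. Apcdd1, a membrane inhibitor of the pathway, was 6.69-fold below P8 (8.57 against 57.3 CPM).

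Several Notch and arterial genes were above both neighbouring ages. Hes1, a transcriptional target of Notch, was at 97.1, 924 and 263 CPM (E12.5, E16.5, P8), so it was 9.51-fold above E12.5 and 3.51-fold above P8. The ligand Jag1 and the target Hey1 were also past 2-fold on both sides, at 101 and 132 CPM. Of 9 Notch genes tested, 3 were above E12.5 and none below, and 4 were above P8 with Jag2 below. Fbln5, an elastic fibre protein, was at 22.2, 278 and 111 CPM (E12.5, E16.5, P8), and Eln (elastin) was 15.9-fold above E12.5 (219.8 against 13.8 CPM). Both rested largely on the 213 cells of cluster 6, described below. Eln was 3651 CPM there and 7.50 in the other cells. The E12.5 cells were not clustered, so their Eln level is over all cells and has no such split. Fbln5 was 3656 CPM in cluster 6, 358 in cluster 2 and at most 41.9 in the rest of clusters 0 to 7. Of the arterial markers, 4 of 9 tested were above E12.5 and none below, and 3 of 10 were above P8. All genes passed in 7.01% (higher) and 5.02% (lower) against E12.5, and in 7.18% and 9.76% against P8, beside these arterial and Notch counts. Gkn3 alone among the arterial markers tested was below P8, by 6.68-fold. Of 6 flow-responsive genes tested, 2 were above E12.5 and none below (median log2 ratio 0.41), beside 7.01% and 5.02% of all genes. None of 6 passed 2-fold against P8. The 2 were Klf2 and Klf4, transcription factors induced by shear stress, at 2.67- and 4.67-fold above E12.5. Against P8 Klf2 was 1.42-fold above and Klf4 1.10-fold below.

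Few tip markers passed 2-fold against E12.5. Of 12 tested, 2 were higher and 2 lower (median log2 ratio 0.19), near the 7.01% and 5.02% of all genes. Esm1 (40.9 to 10.9 CPM) and the channel subunit Kcne3 (122 to 16.8) were lower than at E12.5, whereas the peptide hormone Adm (41.1 to 188) and Plaur, the urokinase receptor, were higher. The E16.5 level of Esm1 rested largely on cluster 7, described below, at 326 CPM against 1.82 in the other cells. Apln, the ligand of the apelin receptor, was at 146, 195 and 312 CPM (E12.5, E16.5, P8). Of 10 tested, 4 were above P8 (Adm, Plaur, Mcam and Trp53i11) and none below, beside 7.18% and 9.76% of all genes, with Adm 8.03-fold higher.

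Many fetal and imprinted growth genes were below E12.5 and above P8. Of 13 tested, 9 were below E12.5 and none above (median log2 ratio -1.48), beside 5.02% and 7.01% of all genes. Against P8, 6 of 8 were above and none below (median 3.33), beside 7.18% and 9.76% of all genes. Mest was at 2824, 555 and 25.8 CPM (E12.5, E16.5, P8), H19 at 1330, 452 and 0.877, and Igf2, the growth factor expressed from the same imprinted locus, at 296, 53.2 and 3.18. At E16.5 H19 was highest in clusters 6 and 7 (4268 and 2923 CPM) and lay between 20.8 and 585 in clusters 0 to 5. Over all cells H19 was 2.94-fold below E12.5 and 515-fold (385 to 707) above P8. The RNA-binding protein Igf2bp1 was 64.7, 22 and 0.0195 CPM. Cdkn1c, an imprinted inhibitor of the cell cycle, was 1.38-fold above E12.5 and 4.28-fold above P8. The comparisons with P8 carry the differences in sex, region and dissociation named above. Without clusters 8 to 10, 7 of 8 were above P8, since Igf2r moved from a log2 ratio of 1.00, just short of the threshold, to 1.01.

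Of 11 glycolysis genes tested, 6 were above P8 and none below, beside 7.18% and 9.76% of all genes. The 6 were Aldoa (4.10-fold), Eno1 (4.40-fold) and Ldha (3.44-fold, 1645 against 478 CPM), with Gapdh, Pkm and Pfkl. Against E12.5, 2 of 11 were higher, Eno1 and Ldha, near the 7.01% of all genes. Of 11 Ly6, MHC class I and interferon genes tested, 3 were above E12.5 and none below (median log2 ratio 0.07), beside 7.01% and 5.02% of all genes. Of 10 tested 2 were above P8 (B2m and Bst2) and 2 below (Ly6a and H2-K1), near the 7.18% and 9.76% of all genes. H2-K1 lay at the threshold and was not called without clusters 8 to 10. The 3 above E12.5 were Ly6 surface genes, whose close copies make the split between them uncertain. Ly6a was at 3.46 CPM at E12.5 and 184 at E16.5, the largest ratio of that comparison among genes with 100 UMIs or more at 53.2-fold (46.6 to 61.0), then 397 at P8 and 3642 in the adult. Ly6c1 (53.4 to 666 CPM) and Ly6e (49.8 to 506, then 409 at P8) were also above E12.5. Immediate early and stress genes were all higher than at E12.5, 15 of 15 tested, beside 7.01% of all genes. Fos was at 79.6, 583 and 503 CPM (E12.5, E16.5, P8) and the heat shock gene Hspa1a at 4.75, 128 and 141. Against P8, 4 of 16 were higher and 3 lower, beside 7.18% and 9.76% of all genes. Both embryonic libraries were digested with collagenase; the part of handling in these values was not tested.

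**Figure D2:**
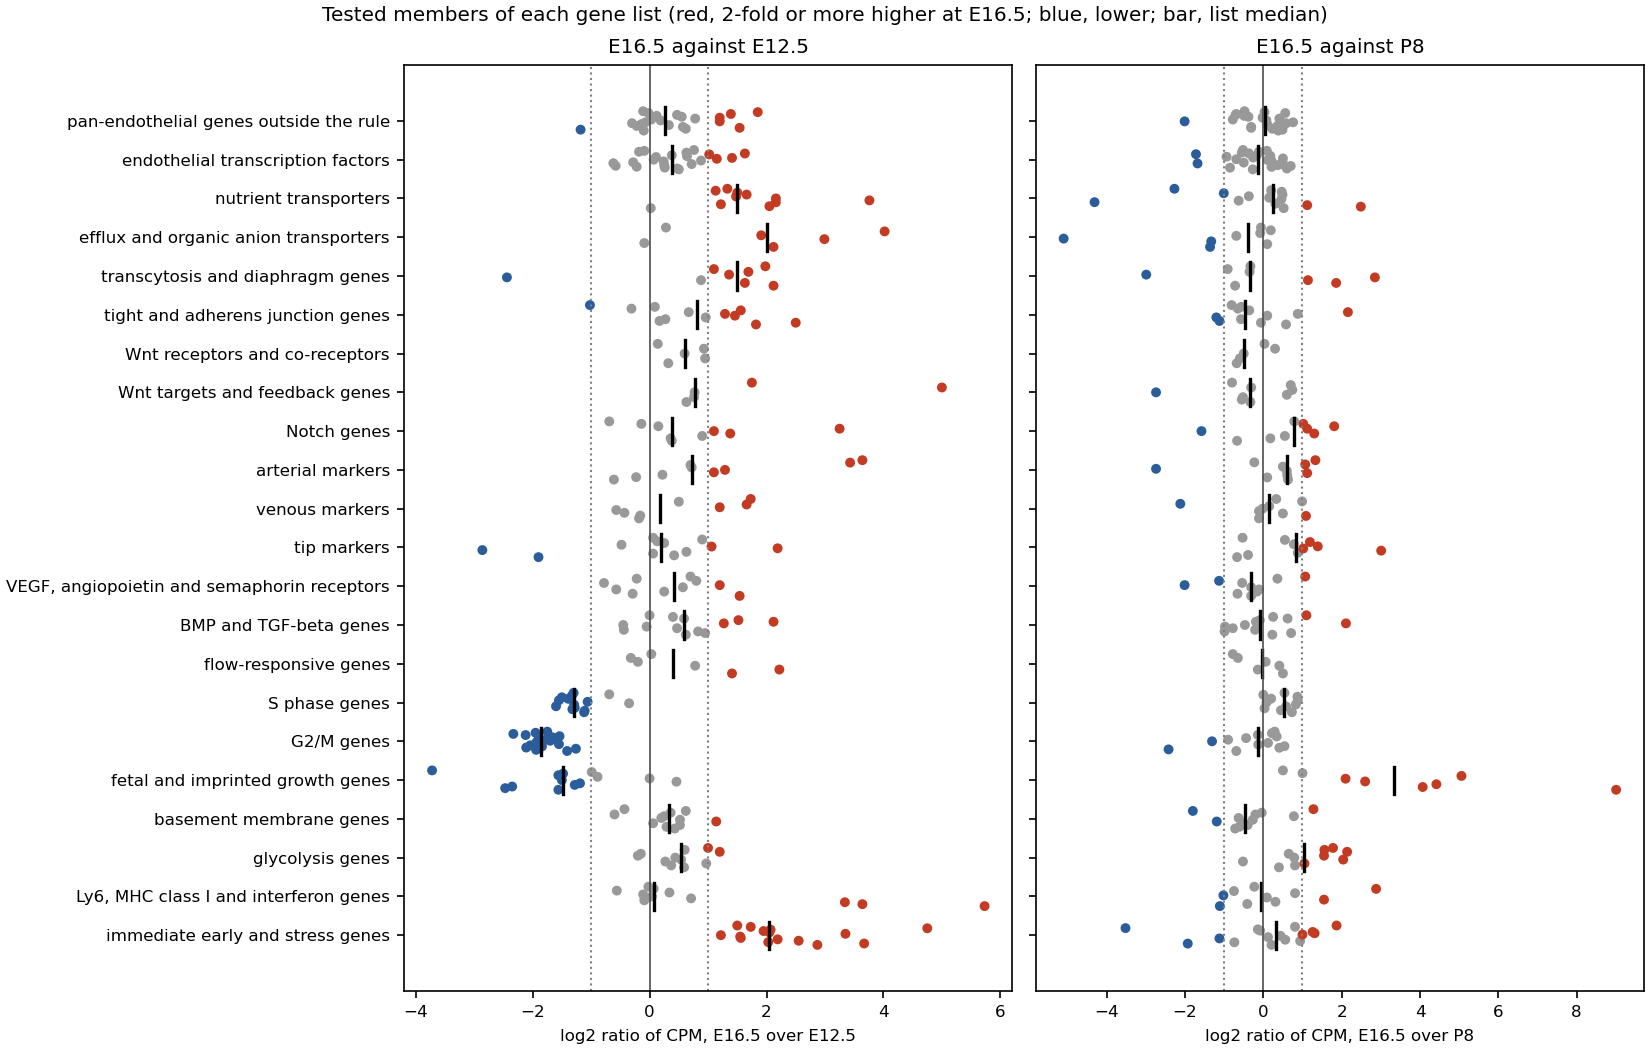
Log2 ratio of CPM at E16.5 over E12.5 (left) and over P8 (right) for each tested member of the gene lists, 1 point per gene; dotted lines mark 2-fold and black bars list medians. All 15 tested immediate early genes lie right of 2-fold against E12.5, and all 18 G2/M genes lie left of it.

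The largest ratios of all genes included list members and others. Above E12.5, after Ly6a, came Ildr2 (39.1-fold), Notum, Ly75 (30.4-fold), Hspa1a, Slc22a8, Cdkn2b, Eln, the recognition protein Pglyrp1 (75.5 to 1181 CPM) and Serpine2. Below E12.5 were embryonic globins and genes of other cells: the platelet gene Ppbp (366-fold), Hbb-bh1, Hbb-y, the neuronal Gap43, Hba-x and Pf4, and also Fabp5, Tgfbi, Hmga2 (43.2 to 3.28 CPM, 13.2-fold) and Crmp1. The leukocyte and platelet list summed to 232 CPM at E12.5 and 9.62 at E16.5, and Hbb-y had a UMI in 99.7% of E12.5 cells against 12.1% at E16.5. Above P8, after Xist, Hbb-y and H19, came Igfbp2 (37.1-fold), Meg3, Mfap2, Mest, Igf2, Spag7 and Bcat2. Below P8, besides the Y-linked Ddx3y and Eif2s3y, were Ndnf (48.2-fold), Slco1a4, Gm42418, Hist1h1b, Slc16a1, the chemokine scavenger Ackr3 (17.6-fold), Lars2 and the carbonic anhydrase Car4 (11.6-fold). Paralogous globin and histone genes share sequence, so their split between copies is uncertain.

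Transcripts of cell division were lower than at E12.5. All 18 G2/M genes were lower than at E12.5 (median log2 ratio -1.86), as were 12 of 14 S phase genes, beside 5.02% of all genes. Against P8, 2 of 13 G2/M genes were lower (Mki67 and Cenpf) and none higher (median -0.13), beside 9.76% and 7.18% of all genes. None of 11 S phase genes passed 2-fold against P8 (median 0.54). Top2a was at 160.3, 60.4 and 97.2 CPM (E12.5, E16.5, P8), and Mki67 at 48.3, 12.6 and 67.6. The share of dividing cells, given next, was above that of P8, unlike the median G2/M level. After each cell was thinned to 2000 UMIs, 291 of 3542 cells had UMIs in 3 or more of the 18 genes, 8.22% (7.33 to 9.17), compared with 71.6% at E9.5, 40.9% at E12.5, 5.33% (4.67 to 6.05) at P8 and 0 of 2680 in the adult (exact interval up to 0.138%; 3 cells would be 0.112%). Without thinning the E16.5 share was 18.4%. Thinning left out 258 cells at E9.5, 95 at P8, 170 in the adult and none at E12.5 or E16.5. In the zero-marker barcodes the share was 15.7% (7.02 to 28.6), 8 of 51. The counts per cell had no gap: 542 cells had 1 G2/M gene, 123 had 2, 55 had 3 and 44 had 4, and the tail reached 14. Cells with 3 or more S phase genes made up 8.75% (7.84 to 9.73).

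**Figure D3:**
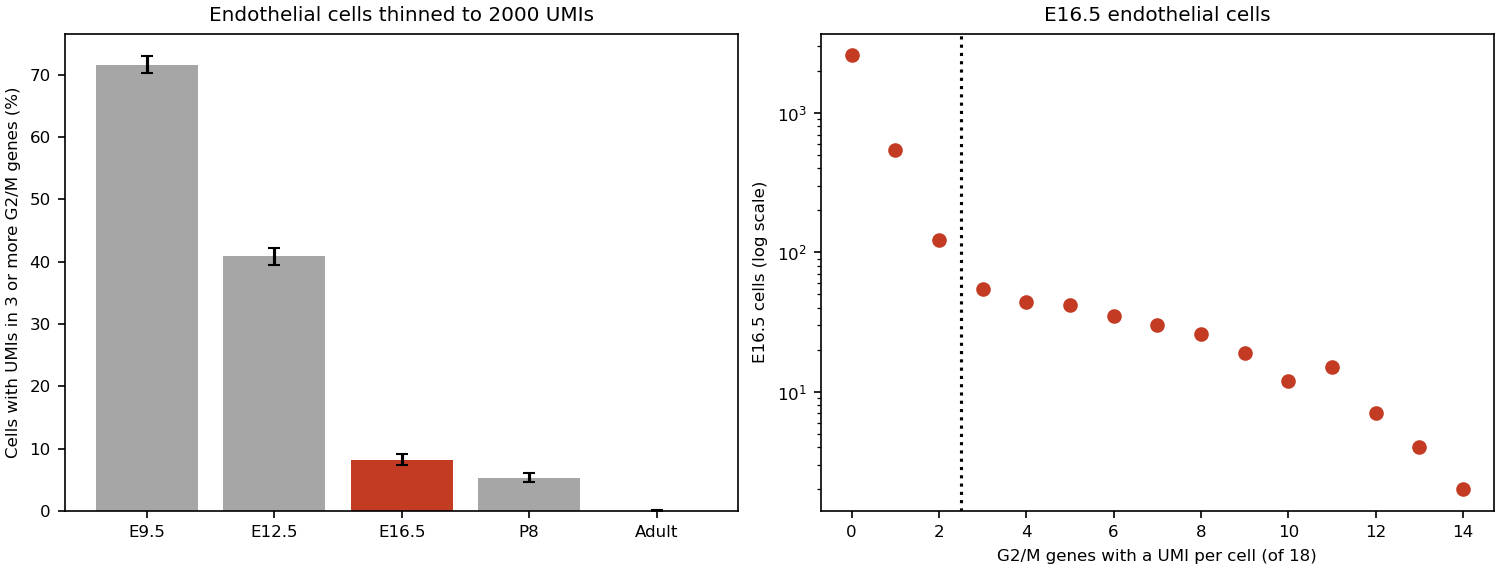
Left, percent of endothelial cells with UMIs in 3 or more of 18 G2/M genes after thinning to 2000 UMIs, with exact binomial 95% intervals as error bars, 1 library per age. Right, number of E16.5 cells (log scale) by how many G2/M genes had a UMI, with the dotted line at the threshold. E16.5 stands at 8.22%, between 40.9% at E12.5 and 5.33% at P8.

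A small set of genes had a spread between E16.5 cells well above counting noise. Spread was measured by the Fano factor, the variance over the mean of UMIs per thinned cell, which is 1 for counting noise alone. Of 3146 genes with a mean of at least 0.1 UMI, 2760 were under 1.2 and 64 were over 2; a factor near 1 at a low mean does not show low variation. Haemoglobin genes and Ttr were at the top. Ttr, a choroid plexus transcript, had a Fano factor of 657 because of 1 barcode, which held 5647 of its 7798 UMIs; no other cell had more than 6, and its level without that cell was 55.1 CPM in place of 199.6. A single barcode likewise held 2338 of 3371 UMIs of Hbb-y. Others followed: Eln (29.6), Fbln5 (12.4), H19 (9.05), the lymphoid chemokine gene Ccl21a (6.59), Plvap (5.24), Meg3 (5.10; 522 CPM in the zero-marker barcodes against 80.9 in the endothelial cells), Cdkn1c (4.92), the growth factor binder Igfbp3 (4.87), the membrane protein Tm4sf1 (4.59) and the arterial connexin Gja4 (4.01). The median of the genes of similar mean was 1.03 to 1.23. Eln had UMIs in 4.74% of thinned cells and up to 70 in 1 cell, and Plvap in 8.44% with up to 16. Abundant genes present in nearly every cell also varied, among them Actb (20.1), Fth1 (10.9) and Bsg (8.43). The list median was 2.59 for fetal and imprinted genes (7 measured), 1.74 for G2/M genes (3), 1.71 for immediate early genes (14) and 1.68 for arterial markers (6). Means differ between lists, so these medians do not rank them by variability.

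**Figure D4:**
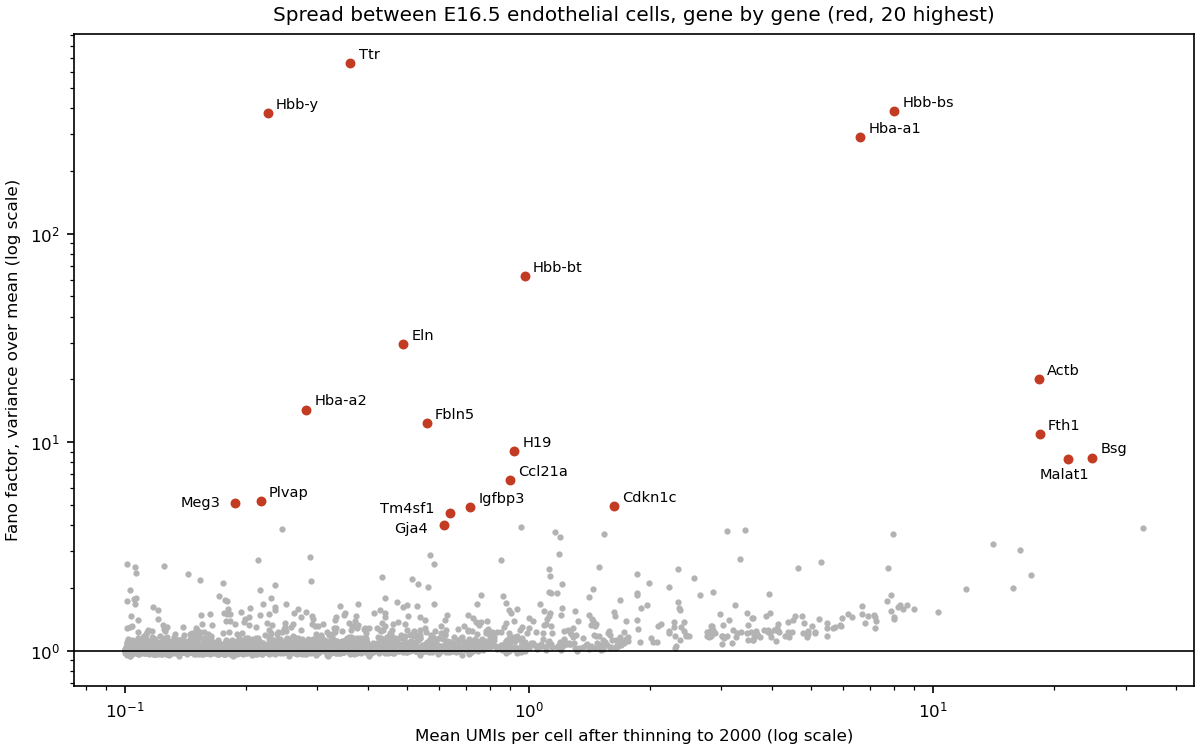
Fano factor of UMIs per cell against mean UMIs per cell for 3146 genes in E16.5 cells thinned to 2000 UMIs, both on log scales; the 20 highest genes are red and named, and the line marks a factor of 1. Ttr (657) and haemoglobin genes stand far above the rest, followed by Eln (29.6) and Actb (20.1).

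Clusters, which were made from the same values, describe that variation and test nothing. There were 11 clusters. Clusters 0 to 7 hold 3424 cells in which no list of another cell type supplied more than 1 of the 10 leading genes. Cluster 6 (213 cells, 6.01%) is arterial-like: all 12 arterial markers were 2-fold or more above the other cells, and it is led by the collagen gene Col8a1, Eln (3651 CPM against 7.50), Elovl4, Halr1 and Krt18. It held Fbln5 at 3656 CPM, Gja5 at 449, Bmx at 217 and H19 at 4268. Its barrier genes were uneven: Cldn5 was 8813 CPM and Slc2a1 1324, but Slc7a5 was 109, Slc22a8 47.0 and Mfsd2a 70.7. Cluster 2 (589 cells, 16.6%), with Ptn, the chemokine Cxcl12 (1705 CPM against 196), Gcnt2, Nebl and Gper1 leading, had 7 of the 12 arterial markers 2-fold higher, among them Gja4 (912 CPM), Hey1 (332) and Vegfc (170.1). It is also arterial-like, yet it had the highest Mfsd2a (1002 CPM), Slc2a1 (2159.6) and Slco1c1 (2014) of clusters 0 to 7 and the lowest Nr2f2 (9.81 CPM, close to 10.1 in cluster 6). Gja5 (22.6 CPM) and Eln were low there.

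Cluster 3 (552 cells, 15.6%) is unnamed: 6 of 12 venous markers were 2-fold or more higher, but of these Ackr1 alone was among its 10 leading genes, which open with Ttr (from the 1 barcode above), the glutamate carrier Slc1a3, Edn3, Gpr182 and Ccl21a (1609 CPM against 325). Nr2f2, the venous transcription factor, was highest there (147 CPM), as was Slc38a5 (1244), whereas Mfsd2a was 81.9 CPM. Cluster 4 (414 cells, 11.7%) held the dividing cells: all 18 G2/M and all 15 S phase genes were 2-fold or more higher, 62.6% of its cells had 3 or more G2/M genes, and its median depth was 14538 UMIs. Histone genes Hist1h1b and Hist1h2ak led it, with Bub1, Fam64a and Depdc1a. Its Slc38a5 (1222 CPM) and Nr2f2 (116) were nearest to those of cluster 3, and its Aplnr (476) to those of clusters 5 and 0 (486 and 498). Dividing cells were rare in clusters 0, 1, 2, 3 and 5, with 3, 0, 1, 2 and 0 cells, and numbered 11 in cluster 6 and 13 in cluster 7.

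Clusters 1 and 5 shared tip markers. Cluster 1 (602 cells, 17.0%), led by the growth factor carrier Fgfbp1, the Tie2 ligand Angpt2, Nnat, Osgin1 and Fam57b, had 5 of 14 tip markers 2-fold higher, with Apln at 586 CPM and Adm at 463. Cluster 5 (242 cells, 6.83%), led by Kcne3, Madcam1, Eva1a, Sirpa and Antxr2, had 8 of 14, with Trp53i11 at 627 CPM and Apln at 466. Both are tip-like by these markers, yet both held barrier transcripts: Slc7a5 was 1970.2 and 1579.6 CPM and Cldn5 9665 and 7745. Esm1, a tip marker of the retina, was at 2.45 and 5.00 CPM in them. Cluster 0 (707 cells, 20.0%) is set apart by small differences only, led by Car4 (150.2 CPM against 44.0), E130012A19Rik, Isyna1, Proser2 and Car5a, and stays unnamed.

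Cluster 7 (105 cells, 2.96%) lacked the barrier pattern. Plvap was at 2500.2 CPM there and from 12.9 to 72.7 in clusters 0 to 6, and Esm1 at 326 against at most 8.35. Cldn5 was 1205 CPM (5627 to 9986 in clusters 0 to 6), Slc2a1 269.5, Mfsd2a 21.9, Slco1c1 31.9, Foxq1 21.9 and Lef1 20.0. Its Mest (2304 CPM), Meg3 (1008) and H19 (2923) were high, like H19 in cluster 6. The 22 pan-endothelial genes outside the rule summed to 10942 CPM, against 7413 in the other cells, with Cd34 at 1292 CPM, Flt1 at 992 and Emcn, the sialoprotein endomucin, at 1414. The Wnt targets summed to 51.9 CPM, against 683 in the other cells. Leading genes were Gm12002, Oit3, Col13a1, Esm1 and Thrsp, and no fixed list names it. At the thinned depth Plvap had a UMI in 73.7% (60.3 to 84.5) of the 57 cells with a UMI of Esm1 and in 7.37% of the others.

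**Figure D5:**
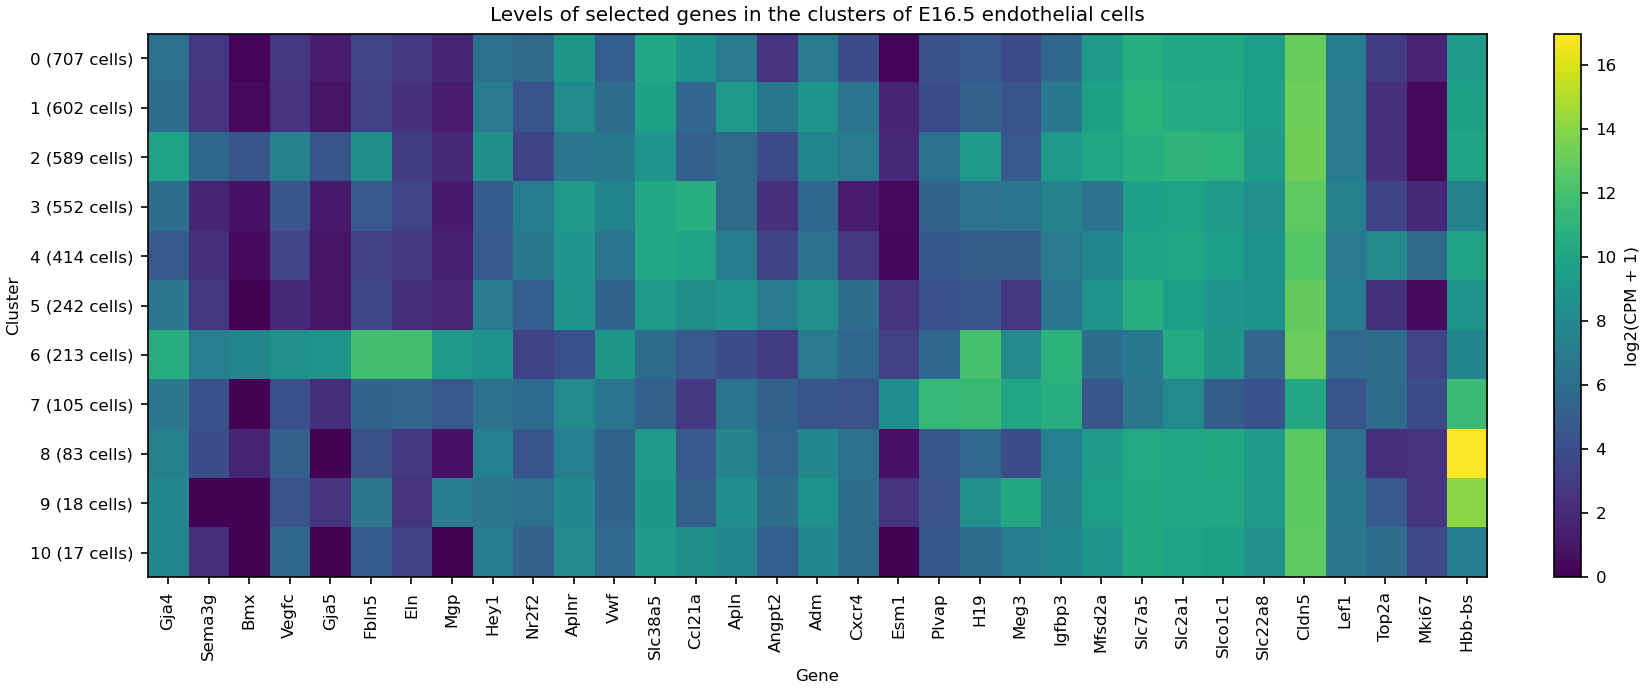
Level of selected genes, as log2(CPM + 1) in colour, in each of the 11 clusters of E16.5 endothelial cells (rows, with their cell numbers). Cluster 6 stands out by Fbln5 and Eln (3656 and 3651 CPM), cluster 7 by Plvap (2500.2 CPM) with low Cldn5, and cluster 8 by Hbb-bs.

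Clusters 8, 9 and 10 go against the endothelial label in their leading genes. Cluster 8 (83 cells) had Alas2, Hbb-bt, Hbb-bs and Hba-a2 among its leading genes, with haemoglobin at 256530.2 CPM. Cluster 9 (18 cells) was led by P2ry14, Cpa1, the pericyte channel gene Kcnj8, G0s2 and Ednra, and cluster 10 (17 cells) by the neural genes Ncan, Gria2, Neurod2, Gm3764 and Elavl3. Endothelial transcripts outside the rule were present in them too: the 22 pan-endothelial genes summed to 6435, 6461 and 6314 CPM in clusters 8, 9 and 10, or 0.853, 0.859 and 0.840 times the sum in the other cells. In cluster 8 haemoglobin is part of the total, which lowers the CPM of every other gene, so its ratio is not comparable with the other 2. The doublet caller Scrublet marked 4 of 3964 barcodes (0.101%). Whether it missed doublets at so low a share was not tested, and doublets were not removed. Without these 118 cells the counts against E12.5 were 412 higher and 283 lower, of which 403 and 277 were called before. Those against P8 were 447 and 580, of which 430 and 573 were. Only the E16.5 sums changed, because the E12.5 and P8 cells were not clustered and were all kept.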

How the data were processed

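Single-cell libraries of brain endothelium from 5 ages were read as deposited UMI counts per gene and barcode. The authors' notes name Cell Ranger (4.0.0 in the file header of the P8 library) and Seurat 4.0.4; the aligner settings are not given in the sources used here. ATAC-seq peaks were called by the authors per library with MACS (2.1.2, per the file headers) on mm10, with Bowtie2, SAMtools 1.13 and Picard in the submitters' processing notes. The −log10 q-values deposited with the peaks were used only to rank peaks in an alternative. Deposited signal values were not used. The members and gene lists were chosen with earlier results of these data known. UMIs of the selected cells were summed per library and divided by the total (CPM). A gene was tested against E12.5 or P8 at a mean of 20 CPM or more and called past 2-fold; no p-value was computed. Named genes are the 20 highest, list members (the highest, the largest ratios and those in counts of 5 or fewer) and the 10 largest ratios each way among genes with 100 UMIs or more in the higher library; other genes were chosen after their values were seen. Cells were thinned to 2000 UMIs for shares and Fano factors. Clusters used scanpy 1.11.5 and leidenalg 0.10.2 (2000 variable genes, 20 principal components, 15 neighbours, resolution 0.6), and a leading gene was in at least 25% of the cells. A promoter had a peak if they shared 1 base. Scripts were tested on simulated data. Scrublet marked 4 of 3964 barcodes and was not used to remove cells. Some items are not reported here.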

Additional observations from a re-analysis of the deposited data

How the results depend on the processing

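Of 93 alternative values 23 moved, by over 1.5 times for a count, beyond the counting interval for the share of dividing cells or by over 1 SD for a promoter share, and 70 did not. Within that tolerance, the genes lower than at P8 numbered 745 with an mt- share of at most 5%, 695 without mt-, ribosomal and haemoglobin genes in the totals and 697 by the mean of the cells' own CPM. With a minimum of 5 CPM, 723 genes were higher and 604 lower than at E12.5, and 720 and 994 against P8; at 50 CPM these were 228 and 141, and 250 and 273. With a fold of 1.5 they were 842 and 761, and 1081 and 1316; with a fold of 3 they were 176 and 99, and 115 and 162. The share of dividing cells was 10.4% thinned to 3000 UMIs, 18.4% without thinning, 11.7% with at least 2 G2/M genes and 5.42% with at least 5. The promoter share at 100 CPM or more was 99% at E12 with the wider window, and 88.9% at E12 and 92.6% at P6 with the same number of peaks per library. Leaving out each ATAC library gave 98.3 to 98.4% at E12 and 95.6 to 97.9% at P6. The alternatives without clusters 8 to 10, without the 5% of cells with most UMIs and without each ATAC library were chosen after seeing the data. At resolution 1.0 there were 15 clusters, and the largest of them to hold cells of clusters 0, 2 and 4 took 37.3%, 68.1% and 50.7%. At 0.3 there were 9: cluster 2 was divided (56.7% in 1), and 1 cluster took 95.3% of cluster 1 and 97.9% of cluster 5. Without clusters 8 to 10, Slc5a6 and H2-K1 were no longer called lower than P8, and Igf2r and Tmsb10 were called higher. No paired analysis was possible because the comparisons come from no test, with 1 library per age. Differences between ages have no replicate check. Sex cannot be told apart from age in either comparison, nor region and dissociation against P8.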

Other observations

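Other gene groups held a few genes past 2-fold, beside 7.01% of all genes higher and 5.02% lower than at E12.5, and 7.18% and 9.76% against P8. Among endothelial transcription factors, Epas1, Klf2 and Foxq1 were higher than at E12.5, and of 24 tested 2 were lower than at P8 (Sox18 and Zic2) and none higher. Of 12 basement membrane genes, Lamb2 was higher than at E12.5; against P8, Serpinh1 was higher and Lamb2 and Fn1 lower. Of 13 BMP and TGF-beta genes, 3 were higher than at E12.5 and 2 higher than at P8, and none lower: Smad6, Smad7 and Id1 were higher than at E12.5, and Smad6 and Tgfb1 higher than at P8.

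Pairs of genes were also counted in cells thinned to the same 2000 UMIs, where a missing UMI does not show that a gene was absent. Slc38a5 had a UMI in 46.2% (42.7 to 49.7) of 807 cells with Gja4 and in 76.1% of the others. Apln was found in 62.9% (55.9 to 69.4) of 210 cells with Angpt2 and in 22.5% of the others. With another tip marker, Esm1, Apln was found in 28.1% (17.0 to 41.5) of 57 cells and in 24.9% of the others. For Mfsd2a the shares were 40.5% of 299 cells with Plvap and 54.8% of the others.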
